A study of Homo sapiens with 15 samples.

Results

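FOXA1 binding was followed across the UGT2B gene cluster, the block of steroid-conjugating enzymes on human chromosome 4. Members were all peaks of the 12 deposited FOXA1 chromatin immunoprecipitation sequencing (ChIP-seq) lists that lay wholly between 69.2 and 70.6 Mb of chromosome 4 (hg19). Membership was set by position and by no score, but the window was chosen with earlier results of these data known. Members numbered 241 of the 249079 peaks in all lists. Peaks of different lists that overlapped by at least 1 bp were merged, which gave 60 sites in the window out of 69194 sites in the genome. Sites are numbered 1 to 60 in the order of their coordinates, and a list is said to call a site when it holds a peak there.

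The cells were 22Rv1, an established human prostate carcinoma line, and the series held 15 samples, of which 3 were input libraries that were not analysed here. Of the 12 FOXA1 libraries, 6 came from parental cells: with DMSO (0.1%), with either of 2 stereoprobes, WX-02-23 and WX-02-43 (20 µM each), with PladB (pladienolide B, a splicing inhibitor), with a small interfering RNA against FOXA1 (siFOXA1) and with a control one (siControl). The other 6 came from engineered lines that all overexpressed Y36C-PHF5A, a form of a splicing factor subunit, and carried doxycycline-inducible FOXA1, wild type (WT) in 1 line and C258A in the other. Each engineered line gave an uninduced library (DMSO without doxycycline), a doxycycline library that received DMSO, and a doxycycline library that received WX-02-23 (20 µM). Compounds were applied for 3 h. For PladB in parental cells the sample's own label gives 100 nM and the shared protocol 10 nM. The labels give no time or dose for doxycycline or the small interfering RNAs, do not say whether the engineered lines are clones, and name an antibody against FOXA1 with no tag, so endogenous and induced FOXA1 cannot be told apart in these lists. Every group had 1 library, so no replicate spread exists for any difference and none was tested; intervals below are Wilson 95% intervals that cover counting error only.

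FOXA1 is a forkhead pioneer factor: it binds its sites in closed chromatin and opens them to other factors, among them the androgen receptor in prostate cells. The UGT2B genes encode UDP-glucuronosyltransferases, membrane enzymes of the endoplasmic reticulum that attach glucuronic acid to small molecules so that they can be excreted. In the prostate UGT2B15 and UGT2B17 conjugate dihydrotestosterone and its metabolites, which ends their action on the androgen receptor, and UGT2B28 also conjugates androgens. UGT2B7 acts on many drugs and steroids, UGT2B4 on bile acids among others, and UGT2B10 on amines. UGT2B11 belongs to the same family. In the RefSeq table of GRCh38.p14 the protein-coding genes follow each other as TMPRSS11E, UGT2B17, UGT2B15, UGT2B10, UGT2A3, UGT2B7, UGT2B11, UGT2B28, UGT2B4, UGT2A1, UGT2A2 and SULT1B1. Since that build differs from the files' build, no gene was placed against a peak, and sites are given by position alone.

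Promoters of 4 of the 7 member genes were matched in RefSeq (GRCh38.p14), and they are shown because they are the start regions of the genes the window covers and because they show how alike the copies are. Each line gives the 250 bases before the gene's start on the gene's strand, 5′ to 3′, with forkhead words in capitals. The consensus word was TGTTTAC. A variant of it, TATTTAC, was searched as well. The last word searched was TGTTTGC, and each was sought on both strands. On the opposite strand TGTTTAC reads GTAAACA, and TATTTAC reads GTAAATA as printed.
UGT2B15: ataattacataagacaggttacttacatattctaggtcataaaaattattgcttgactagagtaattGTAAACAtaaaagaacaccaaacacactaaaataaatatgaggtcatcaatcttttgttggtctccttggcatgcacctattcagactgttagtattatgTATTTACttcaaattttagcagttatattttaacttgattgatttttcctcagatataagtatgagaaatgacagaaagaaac
UGT2B10: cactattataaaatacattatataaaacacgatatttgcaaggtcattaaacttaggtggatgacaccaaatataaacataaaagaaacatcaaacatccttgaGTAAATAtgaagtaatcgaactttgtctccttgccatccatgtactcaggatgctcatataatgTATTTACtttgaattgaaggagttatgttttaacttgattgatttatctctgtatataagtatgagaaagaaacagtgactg
UGT2B11: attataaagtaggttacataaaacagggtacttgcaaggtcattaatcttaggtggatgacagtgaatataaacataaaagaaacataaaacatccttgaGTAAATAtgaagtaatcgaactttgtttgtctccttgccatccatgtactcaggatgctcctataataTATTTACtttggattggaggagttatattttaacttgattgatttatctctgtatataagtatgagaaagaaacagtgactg
UGT2B7: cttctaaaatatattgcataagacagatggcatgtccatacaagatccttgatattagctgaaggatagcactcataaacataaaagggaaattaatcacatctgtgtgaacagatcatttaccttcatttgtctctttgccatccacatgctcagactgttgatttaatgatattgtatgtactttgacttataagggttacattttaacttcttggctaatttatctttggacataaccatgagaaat
A TATTTAC word began 83 bases before the start of UGT2B15 and 82 bases before that of UGT2B10 and of UGT2B11. UGT2B15 also held TGTTTAC on the opposite strand, between 183 and 177 bases before the start, and UGT2B10 and UGT2B11 each held another TATTTAC on the opposite strand. UGT2B7 held none of the 3 words in these 250 bases. Over all 35116 promoters in the table, 8.27% held at least 1 of the 3 words within the same length, 2.98% TGTTTAC, 2.39% TATTTAC and 3.23% TGTTTGC. The UGT2B10 and UGT2B11 stretches were identical at 229 of 254 aligned columns (90.2%), and UGT2B15 matched them at 70.6% and 71.4%. UGT2B7 was the least alike, at 61.3% with UGT2B15, 64.6% with UGT2B10 and 65.1% with UGT2B11. Words in these related copies are therefore not independent observations. How the authors' alignment treated reads that fit several such copies is not given in the sources used here. A word is a match of letters and no measure of binding.

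In the window the parental lists held 22 peaks with DMSO, 31 with siControl, 24 with PladB, 1 with siFOXA1, 16 with WX-02-23 and 18 with WX-02-43. The WT line held 10 when uninduced, 30 when induced with DMSO and 30 when induced with WX-02-23, and the C258A line held 13, 20 and 26. The whole lists ran from 3018 to 34119 peaks, and read depth behind them is unknown, so the number of peaks moves with list length as well as with binding. As a share of its list the window took from 0.0331% (siFOXA1) to 0.150% (C258A with doxycycline and DMSO). In that C258A list the share was 0.150% (0.0974 to 0.232%), against 0.0677% and 0.0376% in the adjoining windows of the same length before and after it. In parental DMSO it was 0.0720% (0.0476 to 0.109%), against 0.0360% and 0.0785%. In parental WX-02-23 it was 0.0929% (0.0572 to 0.151%), against 0.0465% and 0.0639%. With the 11 lists other than siFOXA1 reduced to their 8575 highest-scoring peaks, the window held 8 to 15 peaks in each. Window peaks had a median score of 471 in parental DMSO, beside 228 in its whole list. The medians were 253 beside 192 in WT cells with doxycycline and DMSO. Without doxycycline they were 149 beside 159 in WT and 193 beside 187 in C258A cells. The kept shares below were not matched for score between window and whole list.

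**Figure D1:**
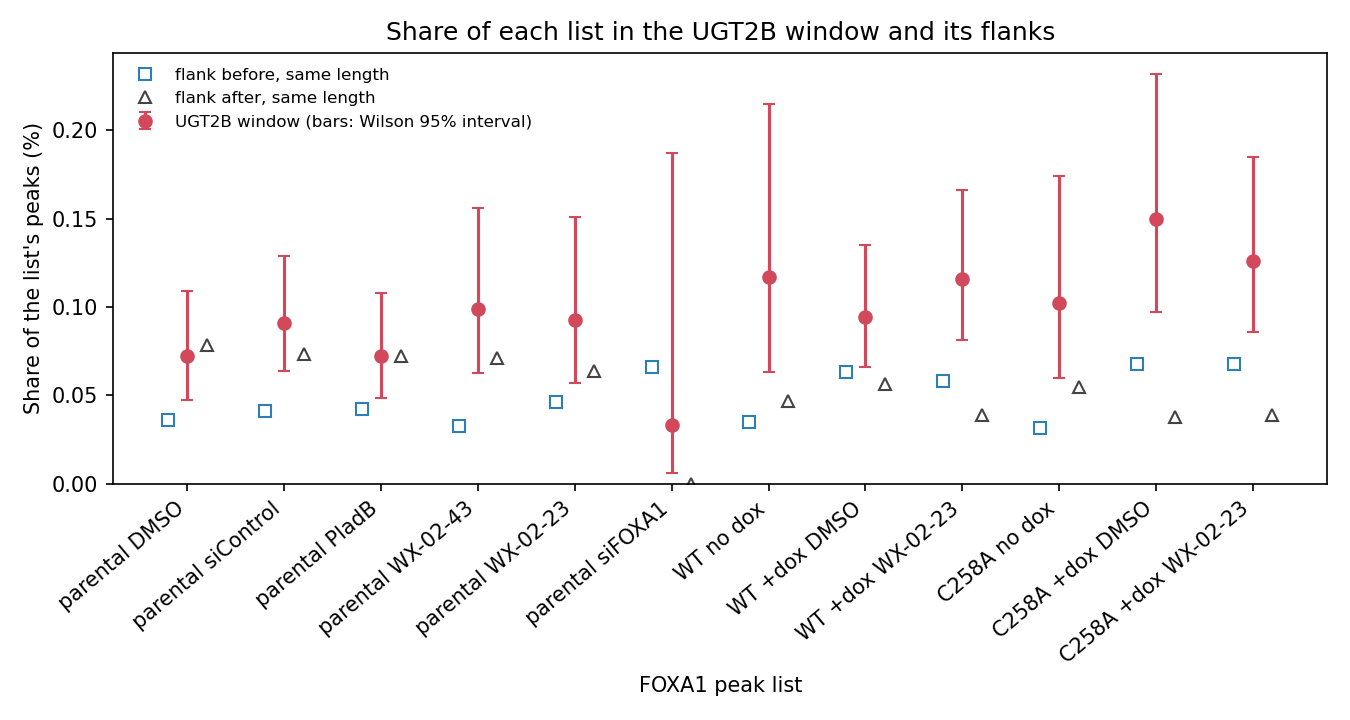
Share of each list's peaks (percent, y axis) that lay in the UGT2B window (filled circles, bars: Wilson 95% intervals) and in the windows of equal length before (squares) and after it (triangles), for the 12 FOXA1 lists (x axis). The window held more than the flank before it in every list but siFOXA1. It held more than both flanks in all 6 engineered lists and in the parental siControl, WX-02-43 and WX-02-23 lists. Examples are 0.150% against 0.0677% and 0.0376% in C258A cells with doxycycline and DMSO. In parental cells with WX-02-23 the values were 0.0929% against 0.0465% and 0.0639%.

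The 60 sites were sorted by the lists that called them. Sites called both with and without doxycycline numbered 16 (26.7%, against 21.8% of all 69194 sites), sites called in doxycycline lists alone 23 (38.3%, against 36.0%), and sites called without doxycycline alone 21 (35.0%, against 42.2%). The shared sites were broad, with a median merged width of 1320.0 bp and a median of 10 lists each. The sites of doxycycline lists alone and of lists without doxycycline alone were narrower, at 604 and 646 bp, and were called in a median of 2 lists. Over all sites the same 3 classes had median widths of 974, 595 and 695 bp, so the shared class was the widest there too. A merged site can only widen as more lists are merged into it. A total of 19 sites (31.7%, against 29.6% of all sites) were called in 1 list, 7 of them in siControl (11.7%, 5.77 to 22.2%, against 4.09% of all sites). Neighbouring sites lay a median of 14.7 kb apart. The widest stretch without a site was 116 kb, between sites 30 and 31, followed by 87.2 kb between sites 25 and 26. Of 7 equal bins of 200.0 kb, the fifth held most sites, 15, and 7 of these were called in doxycycline lists alone.

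**Figure D2:**
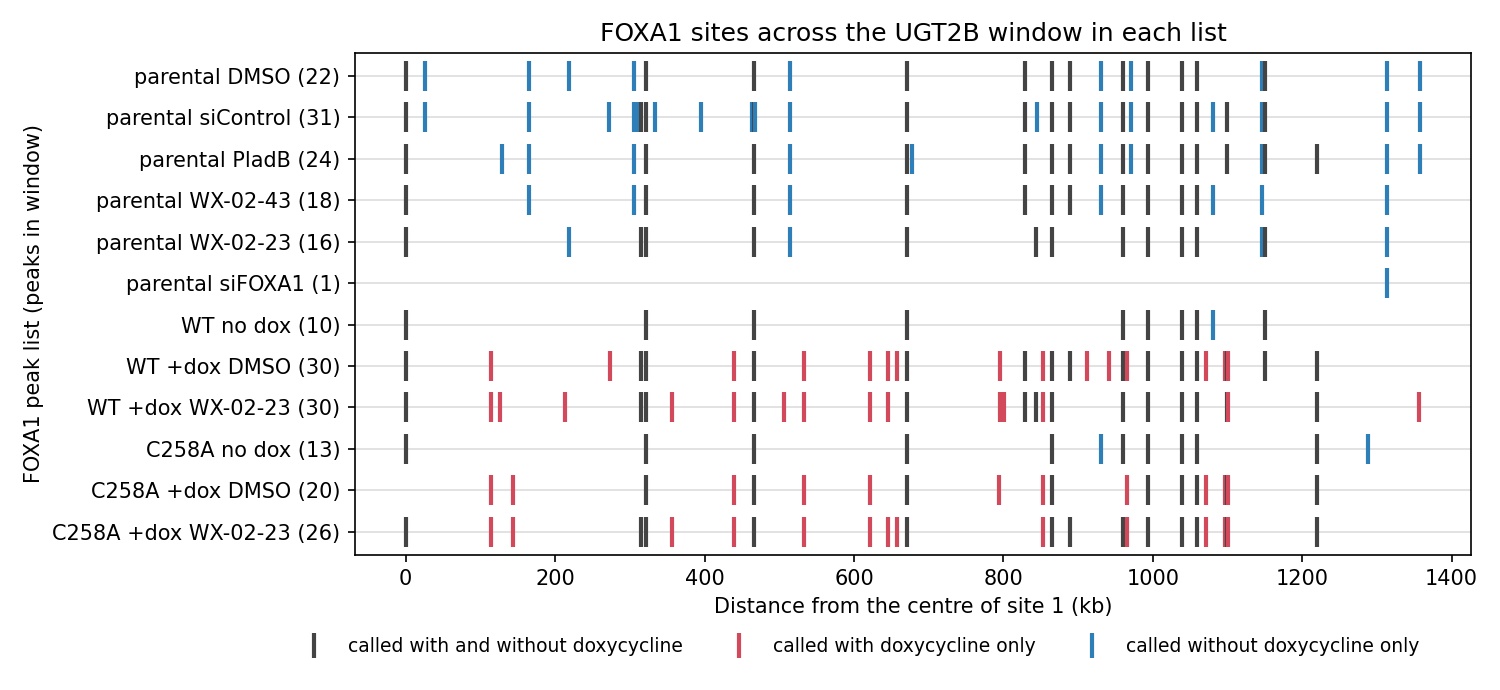
Position of each called site as distance from the centre of site 1 (kb, x axis) in each of the 12 lists (y axis, with the number of peaks in the window). Black marks are the 16 sites called with and without doxycycline, red the 23 called with doxycycline alone, blue the 21 called without it alone; red marks are spread over the window and appear in the 4 doxycycline lists.

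A core of 6 sites (10.0%, against 3.66% of all sites) was called in 11 lists, every list but siFOXA1. The authors' score, whose definition is not stated and which ranks peaks within a list, is given for each with its rank. Site 29, at chr4:69885256-69886859, had the highest score of the window in the parental DMSO list, 2315 (rank 556 of 30557). Its scores were 1757 with siControl, 1898 with PladB, 1300.0 with WX-02-43 and 413 with WX-02-23 in parental cells. In the WT line they were 449 uninduced, 746 induced with DMSO and 165 induced with WX-02-23, and in the C258A line 888, 331 and 544. The lowest score was that of WT cells induced with WX-02-23, followed by that of C258A cells induced with DMSO. Its ranks in the WX-02-23 lists were 3815 of 17217 in parental and 13678 of 25849 in WT cells. In the WX-02-43 list, of similar length to the parental WX-02-23 list, it ranked 448 of 18228. In C258A cells it ranked 2240 of 13299 with DMSO and 2039 of 20609 with WX-02-23. Scores from different lists, and ranks from lists of different lengths, describe each list and measure no change.

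Site 47, the broadest at 1824 bp (chr4:70254102-70255925), scored 2095 with DMSO, 1747 with siControl, 1426 with PladB, 1099.6 with WX-02-43 and 902 with WX-02-23 in parental cells. It scored 589, 929 and 513 in the WT lists (uninduced, induced with DMSO, induced with WX-02-23), and 1002, 358 and 363 in the C258A lists in the same order. It was the highest-scoring window peak in all 3 WT lists and in C258A cells with doxycycline and DMSO. Site 15 (chr4:69535782-69537248) scored 2013, 1400.3, 1864, 681 and 872 in the same 5 parental lists. In WT cells its scores were 147, 778 and 291, and in C258A cells 1020.0, 279 and 437. Site 21 (chr4:69681016-69682613) scored 1686, 1646, 1698, 1089 and 1300.2 in the parental lists, and ranked 560 of 17217 with WX-02-23, the highest rank of any window peak in that list. Its engineered scores were lower in number, 151, 322 and 305 in WT and 428, 183 and 460.1 in C258A cells. Site 46 (chr4:70208773-70210104) had scores between 184 and 809, and site 48 (chr4:70273746-70274917) between 114 and 1037. Sites 15, 21, 29, 47 and 48 were among the 7 window peaks in the highest-scoring 10% of the DMSO list, and all 7 were called with siControl, PladB, WX-02-43 and WX-02-23, as were 97.5% of the 3055 peaks in that part of the whole list. The other 2 of the 7 were sites 24 and 38, named after their values were seen.

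**Figure D3:**
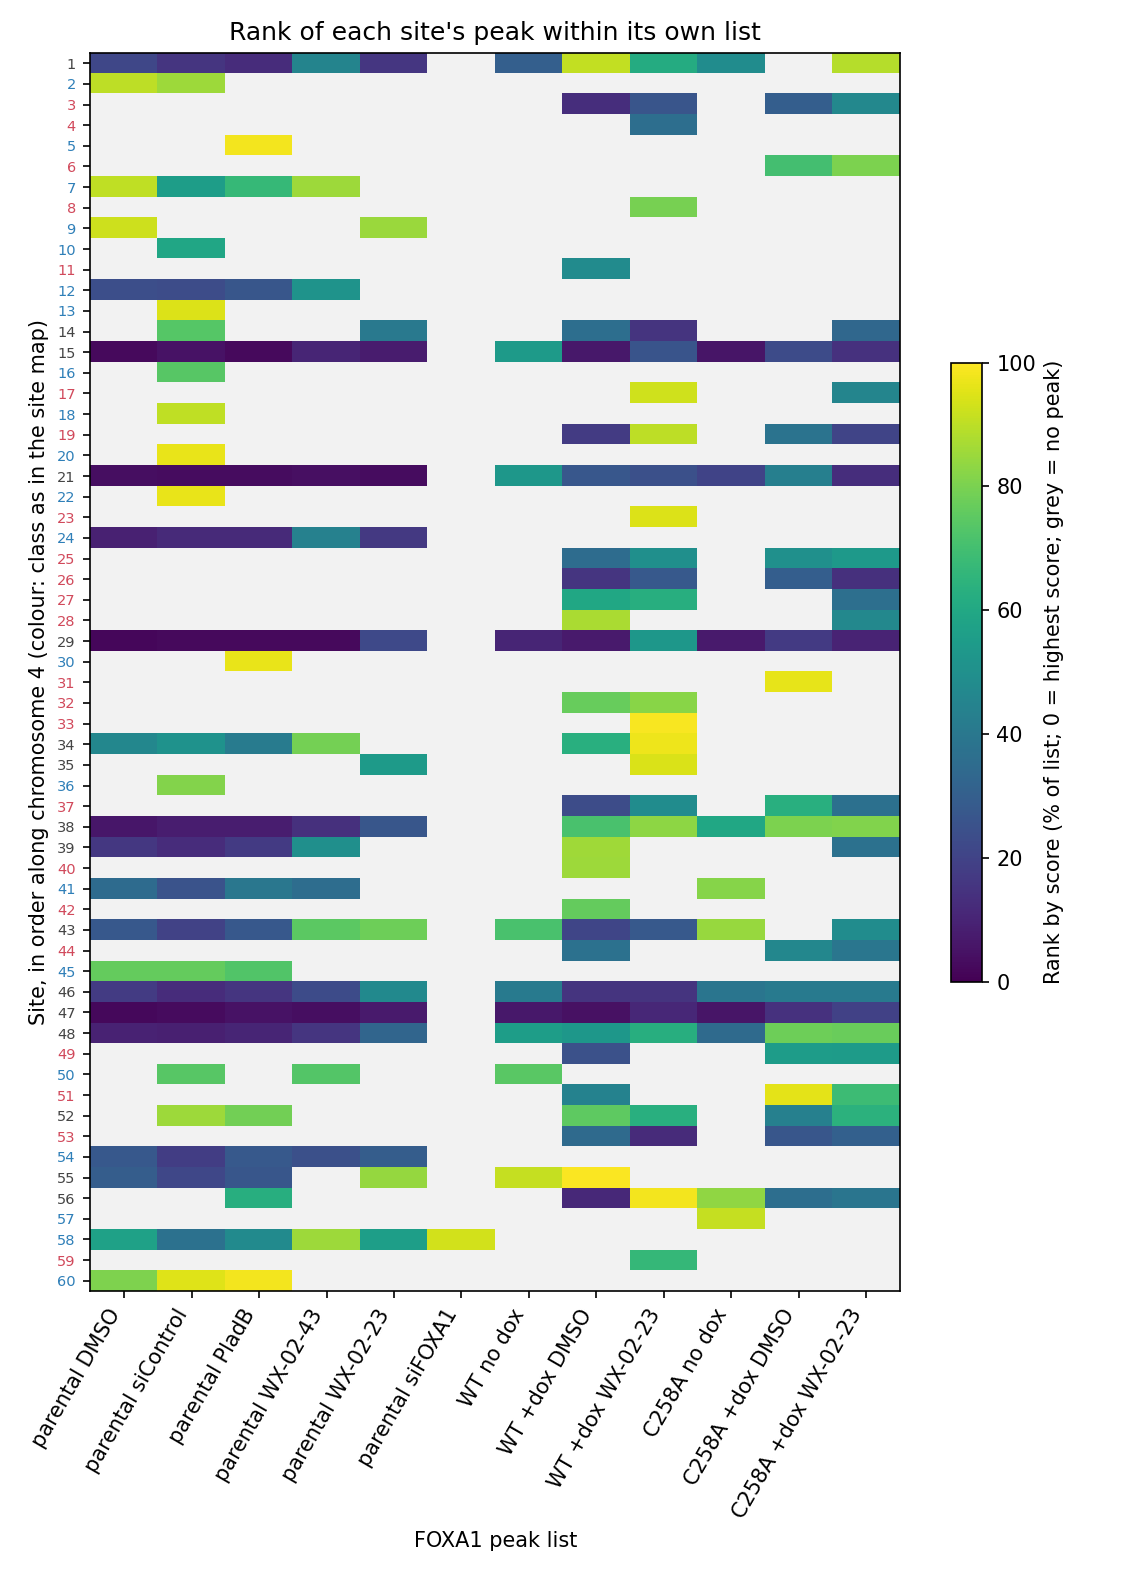
Rank of each site's peak within its own list, as a percent of the list's length (colour, 0 is the highest score, grey is no peak), for the 60 sites in order along chromosome 4 (rows) and the 12 lists (columns). Sites 15, 21, 29, 46, 47 and 48 are coloured in every column but siFOXA1, whose column holds 1 coloured cell, at site 58.

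Knockdown left 1 window peak. Of the 31 siControl peaks, 1 (3.23%, 0.572 to 16.2%) was called with siFOXA1, beside 3.84% of the whole siControl list. That peak was site 58, chr4:70529917-70530619, with a siFOXA1 score of 93.2 (rank 2816 of 3018) near the lowest score deposited. It scored 194 with DMSO, 314 with siControl, 239 with PladB, 109 with WX-02-43 and 174 with WX-02-23 in parental cells, and none of the 6 engineered lists called it. The 30 siControl peaks not called with siFOXA1 included the 6 in the highest-scoring 10% of the list, with scores from 1037 to 1757. In that part of the whole siControl list 78.0% of 3411 peaks were not called with siFOXA1. With siControl cut to the 3018 peaks of the siFOXA1 list, the window held the same 6 peaks. Of them 0 was called, beside 23.0% of the whole cut list, so this adds no further peaks.

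The siControl and PladB lists were also set against DMSO, though neither repeats the DMSO treatment. Both were longer than the DMSO list, with 34119 and 33121 peaks against 30557. The parental WX-02-23 and WX-02-43 lists were shorter, with 17217 and 18228, so the shares below are no baseline for the stereoprobes. The siControl list called 21 of the 22 DMSO peaks (95.5%, 78.2 to 99.2%), beside 88.1% of the whole DMSO list, and the PladB list 20 (90.9%, 72.2 to 97.5%), beside 88.2%. The 1 DMSO peak absent with siControl scored 101, and the 2 absent with PladB scored 101 and 104. siControl held 10 of 31 peaks (32.3%, 18.6 to 49.9%) that overlapped no DMSO peak, beside 21.5% of its whole list, and 6 of 26 (23.1%, beside 16.3%) when the lists were of equal length. These 10 had scores from 94.6 to 181. PladB held 4 such peaks of 24 (16.7%, 6.68 to 35.9%), beside 19.4%, and 2 of 21 (9.52%, beside 15.6%) at equal length.

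In parental cells WX-02-23 left 14 of the 22 DMSO peaks (63.6%, 43.0 to 80.3%) and 8 were missing. Over the whole DMSO list 47.2% were left and 52.8% missing, and the window's interval includes 47.2%. The 14 that stayed had a median DMSO score of 827 and the 8 others a median of 190.5 and a maximum of 702. At equal length, 12 of 16 (75.0%) were called, beside 68.6%. The strongest window peak missing with WX-02-23 was site 39, chr4:70104572-70105921. It scored 702 with DMSO (rank 4915 of 30557), 812 with siControl, 678 with PladB and 197 with WX-02-43. Site 12 (chr4:69521631-69522738) was called in the same 4 lists with scores of 503, 509.7, 455 and 192, and in no engineered list. Site 41 (chr4:70145545-70146492) scored 342, 464, 298 and 273 in those lists, and 112 in C258A cells without doxycycline. Site 34 (chr4:70043852-70045050) scored 249, 219, 282 and 119, and was called in WT cells with doxycycline under DMSO (153) and under WX-02-23 (92.3). Together with site 7, these made 5 sites (8.33%, against 6.83% of all sites) called with DMSO, siControl, PladB and WX-02-43 and not with WX-02-23 in parental cells.

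WX-02-23 peaks without a DMSO peak numbered 2 of 16 (12.5%, 3.50 to 36.0%, beside 15.5% of the whole list), 4 at equal length (25.0%, beside 30.5%) and 5 when a shared peak had to overlap by 50% in both directions. Site 14, chr4:69530454-69531761, scored 245 with WX-02-23 (rank 6937 of 17217) and 137 with siControl in parental cells, so it was not particular to the stereoprobe there. In WT cells with doxycycline it scored 255 with DMSO (rank 11527 of 31735) and 422 with WX-02-23 (rank 3870 of 25849). In C258A cells it was called with WX-02-23 at 248 and not with DMSO. Site 35, chr4:70059762-70060324, was the 1 site called with WX-02-23 and with no other parental list (1.67%, against 2.13% of all sites). It scored 180.0 there and 95.4 in WT cells with doxycycline and WX-02-23, and no other list called it.

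Between the stereoprobes, applied at the same dose and time and compared here as 1 pair, WX-02-43 left 17 of the 22 DMSO peaks called (77.3%, 56.6 to 89.9%), beside 55.5% of the whole list. That whole-list value lies just below the window's interval. The 17 had a median DMSO score of 664 and the 5 others a median of 123. The window's DMSO peaks scored higher than the whole list (median 471 against 228), so the 2 shares are not matched for score. Both stereoprobes left the same 12 peaks, WX-02-43 alone left 5 and WX-02-23 alone left 2, and 3 were called with neither. Over the whole DMSO list these classes took 38.9%, 16.6%, 8.28% and 36.2%. The share called was 13.6 percentage points higher with WX-02-43 (Wald interval from -9.24 to 36.5), where the whole list gave 8.29 points. That interval treats the 22 peaks of 1 pair of libraries as independent, so it is no test of a difference between the stereoprobes. The 5 peaks were those of sites 7, 12, 34, 39 and 41, and the 2 were sites 9 and 55. WX-02-43 peaks without a DMSO peak numbered 1 of 18 (5.56%, 0.988 to 25.8%, beside 6.10%), site 50 with a score of 131, which siControl (135) and WT cells without doxycycline (115) also called. The WX-02-23 list called 12 of the 18 WX-02-43 peaks (66.7%, 43.7 to 83.7%), beside 67.5% of the whole list, and 4 of its 16 peaks (25.0%, 10.2 to 49.5%, beside 28.6%) had no WX-02-43 peak. At equal length WX-02-43 left 16 of 17 (94.1%), beside 80.4%.

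**Figure D4:**
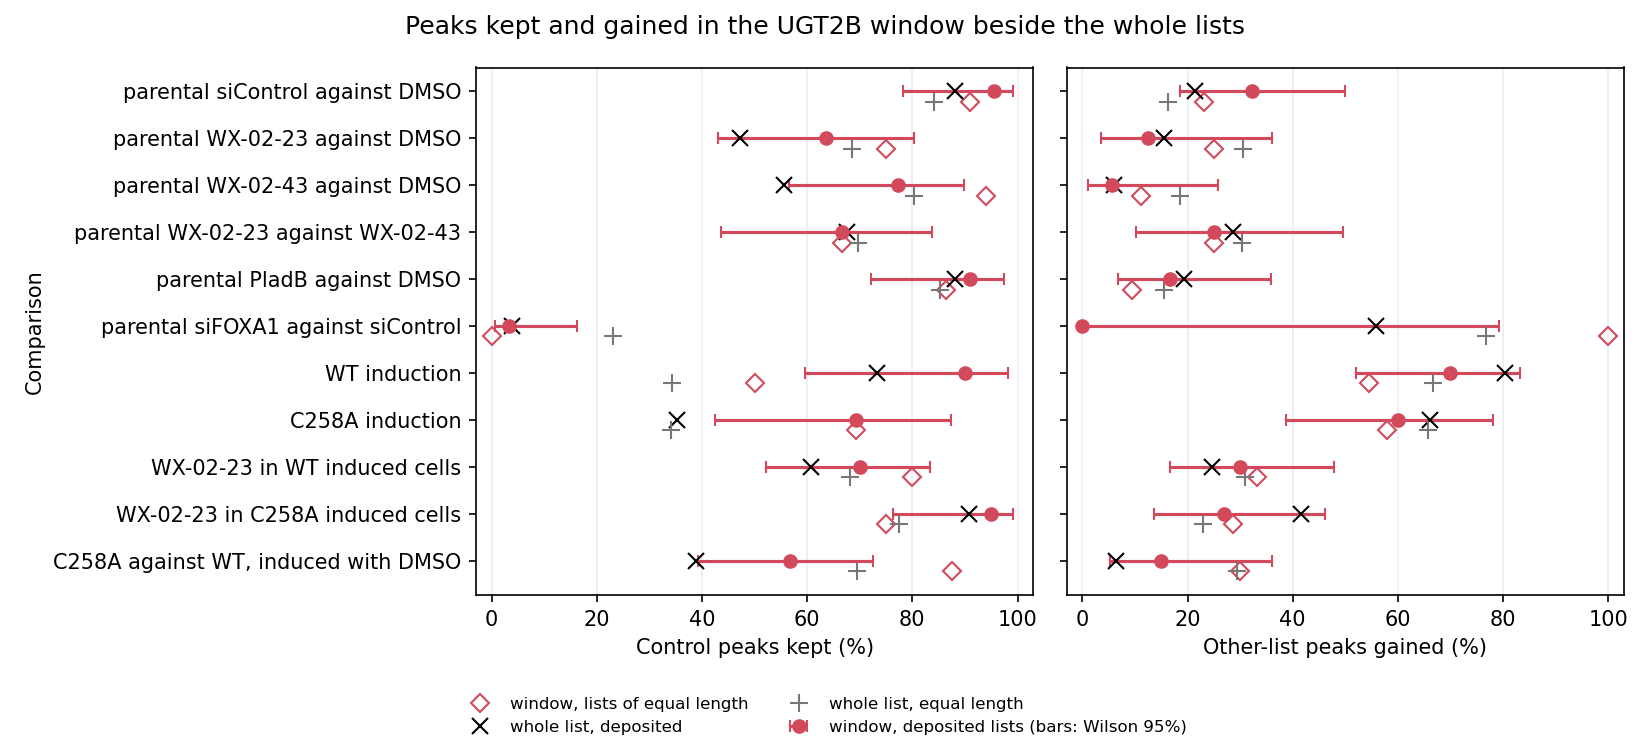
Percent of control-list peaks kept (left) and percent of peaks of the other list gained (right) in each of the 11 comparisons (y axis), for the window with deposited lists (filled circles, bars: Wilson 95% intervals), the window with lists of equal length (diamonds), and the whole lists, deposited (crosses) or of equal length (plus signs). In C258A induction the window kept 69.2% where the whole list kept 35.2%, and this is the comparison with the widest gap between the kept values at deposited length.

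Doxycycline was followed next, to see which window sites came with induced FOXA1. In WT cells, 9 of the 10 peaks called without doxycycline (90%, 59.6 to 98.2%) were called with it, beside 73.3% of the whole list, and 21 of 30 induced peaks (70.0%, 52.1 to 83.3%) had no partner without it, beside 80.4%. With both lists at 8575 peaks these became 5 of 10 (50%, beside 34.2%) and 6 of 11 (54.5%, beside 66.6%). In C258A cells, 9 of 13 peaks (69.2%, 42.4 to 87.3%) were called with doxycycline, beside 35.2% of the whole list, which lies below the window's interval. Among these 9 peaks, 2 belonged to site 47 and overlapped the same induced peak, so the peaks are not independent. This was also the widest kept gap of the 11 comparisons, and the interval is no test of it. At equal length the values were 69.2% and 34.1%. Of 20 induced C258A peaks, 12 (60%, 38.7 to 78.1%) had no partner without doxycycline, beside 66.2%. Of the 22 parental DMSO peaks, 12 (54.5%, 34.7 to 73.1%) were called in WT cells with doxycycline and DMSO, beside 36.6% of the whole DMSO list, and 7 (31.8%, 16.4 to 52.7%) in the C258A list, beside 17.3%. Read from the engineered side, 9 of 10 uninduced WT peaks and 11 of 13 uninduced C258A peaks (84.6%) lay at a parental DMSO peak, beside 95.5% and 92.8% of the whole lists. Among peaks induced with DMSO the counts were 12 of 30 in WT (40%, beside 35.7%) and 7 of 20 in C258A cells (35%, beside 40.4%).

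Sites called in at least 1 doxycycline list and in neither list of the engineered lines without it numbered 28 (46.7%, against 44.1% of all sites). With the 6 engineered lists at equal length there were 13. Of the 28, 5 (sites 14, 34, 35, 39 and 52; 8.33% of the window's sites, against 8.10% of all sites) were called in parental cells, and the other 23 in doxycycline lists alone. Of the 23, 6 (10.0% of the window's sites, against 6.91% of all sites) were called in all 4 doxycycline lists: sites 3, 19, 25, 26, 37 and 53. In the WT line alone there were 9 (15.0%, against 18.6%) and in the C258A line alone 2 (3.33%, against 2.62%), where the WT list with DMSO is the longer by 31735 to 13299 peaks.

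The strongest of these sites in WT cells was site 3, chr4:69329436-69330154. It scored 533 with DMSO (rank 4124 of 31735) and 288 with WX-02-23 in WT cells, and 237 and 188 in C258A cells. Site 26 (chr4:69836268-69837074) scored 482 and 278 in WT and 235 and 446 in C258A cells. Site 19 (chr4:69654013-69654639) scored 441 and 99.9 in WT and 201 and 352 in C258A cells. So the WX-02-23 score of sites 19 and 26 was the lower of the pair in WT and the higher in C258A cells, in lists whose lengths differ in the same directions. Site 37 (chr4:70067984-70068648) scored 358 and 178 in WT and 136 and 228 in C258A cells, the same order. Site 53 (chr4:70316607-70317294) went the other way in WT cells, with 266 under DMSO (rank 10946 of 31735) and 471 under WX-02-23 (rank 3226 of 25849), its list's second-highest window score after site 47, and had 252 and 265 in C258A cells. Site 49 (chr4:70286312-70286996) scored 342 in WT cells with DMSO and was not called there with WX-02-23, and it scored 152 and 163 in C258A cells.

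WX-02-23 was then compared with DMSO in induced cells. In WT cells WX-02-23 left 21 of 30 DMSO peaks (70.0%, 52.1 to 83.3%), beside 60.7% of the whole list, and at equal length 20 of 25 (80.0%), beside 68.1%. The 21 had a median DMSO score of 322 and the 9 others a median of 124 and a maximum of 342. In C258A cells, 19 of 20 (95%, 76.4 to 99.1%) were called, beside 90.8%, and at equal length 15 of 20 (75.0%), beside 77.4%. The window's order of the lines, lower in WT than in C258A cells, was turned round at equal length, 80.0% and 75.0%. The whole lists kept that order at equal length, 68.1% and 77.4%. Equal length shortened the DMSO list in WT cells and the WX-02-23 list in C258A cells. The equal-length shares of the lines are therefore not built alike, and no conclusion is drawn from their order. The difference between the lines was not tested.

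WT cells gained 9 of 30 peaks with WX-02-23 (30.0%, 16.7 to 47.9%, beside 24.6% of the whole list), at 7 sites without a DMSO peak and as additional peaks within sites 21 and 52. Their scores ran from 90.9 to 227 with a median of 99.7, against a median of 175 for the shared peaks. The strongest was site 4, chr4:69341434-69341865, with a score of 227 (rank 9368 of 25849), called in that list alone. Site 59 (chr4:70571279-70571798) with 133 and site 8 (chr4:69428686-69429117) with 113 were also called in that list alone. Site 17 (chr4:69572321-69572859) was the 1 site gained with WX-02-23 in both lines (1.67%, against 1.02% of all sites), with 96.8 in WT and 193 in C258A cells.

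C258A cells gained 7 of 26 peaks (26.9%, 13.7 to 46.1%, beside 41.5% of the whole list, and 28.6% beside 22.9% at equal length). They were sites 1, 14, 17, 27, 28, 39 and 43, with scores from 101 to 248. The WT line held 6 of the 7 with doxycycline and DMSO already, all but site 17 (85.7%, 48.7 to 97.4%). Of the 8365 sites gained in C258A cells over the whole genome 71.2% were held in the same way, a value inside the window's interval. Site 27 (chr4:69861469-69862116) scored 161 and 141 in WT cells with DMSO and WX-02-23 and 231 in C258A cells with WX-02-23. Site 39 was missing with WX-02-23 in parental cells. In WT cells it was called with DMSO (108, rank 27269 of 31735) and not with WX-02-23. In C258A cells it was called with WX-02-23 (228) and not with DMSO.

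Without compound, the induced lines were also set side by side. Of the 30 WT peaks with doxycycline and DMSO, 17 (56.7%, 39.2 to 72.6%) were called in the corresponding C258A list, beside 38.8% of the whole list. That whole-list value lies just below the window's interval. The 17 had a median WT score of 358 and the 13 others a median of 124. The window's WT peaks had a median of 253, beside 192 in the whole list, so the shares are not matched for score. At equal length 14 of 16 were called (87.5%, beside 69.5%). C258A peaks absent from the WT list numbered 3 of 20 (15.0%, 5.24 to 36.0%, beside 6.39%), and 6 of 20 at equal length (30.0%, beside 29.5%). They were the peaks of sites 6 and 31 and a C258A peak of site 52 that lay beside the WT peak of the same site, with scores of 125, 93.3 and 183.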

How the data were processed

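FOXA1 ChIP-seq was analysed from 12 deposited peak lists, 1 per library, with no pooled list. The authors' score in each list, as deposited, has no stated definition. Peaks were ranked and filtered by it within 1 list only. Scores of a site in different lists are printed side by side as a description, and no change in binding was measured from them. Per the submitters' processing notes, hg19, bcl2fastq and Bowtie2 were used, without roles or versions, and the peak names begin with MACS; thresholds, the control used and the treatment of reads that fit several places are not given in the sources used here. Starts were read as counted from 0 and are printed counted from 1.

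Overlaps of at least 1 bp, merged sites and Wilson 95% intervals were computed with Python 3.11.15, numpy 2.4.6 and scipy 1.17.1. The overlap and site counts, but not the intervals, were checked on simulated lists. The interval of the difference between stereoprobes is a Wald interval for paired shares. For equal length, the longer list was cut to its highest-scoring peaks. Promoters were aligned with Biopython 1.88. Gene lists and proteins were not set against peaks, as no hg19 annotation was used.

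Sites were named by a rule: the 6 highest by WT rank among sites called in both lines with doxycycline and DMSO and in neither list without doxycycline; up to 4 each gained and lost with WX-02-23 in parental cells; 4 gained with it in each induced line; the siFOXA1 site; and the 3 sites called in most lists, of which 6 tied. Other sites were named after their values were seen. The window, rule and lists were chosen with earlier results of these data known.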

Additional observations from a re-analysis of the deposited data

Results flagged for a closer look

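The number of window peaks with WX-02-23 moved in opposite directions from DMSO in 2 cell backgrounds, by -6 in parental cells (22 to 16) and by 6 in C258A cells with doxycycline (20 to 26). In WT cells with doxycycline both lists held 30. The whole lists went from 30557 to 17217 peaks in parental, from 13299 to 20609 in C258A and from 31735 to 25849 in WT cells. Each value comes from 1 library, and the difference was not tested.

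At sites 28 and 39 the call with WX-02-23 was lost in WT cells and gained in C258A cells. Site 28 (chr4:69872541-69873078) scored 106 in WT cells with DMSO and 188 in C258A cells with WX-02-23, and site 39 scored 108 and 228. These 2 sites are 3.33% of the window's sites, beside 2.90% of all sites. The opposite pattern occurred at 0 window sites and at 0.0795% of all sites. The difference between the lines was not tested.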

How the results depend on the processing

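Of 158 alternative values for the counts and shares, 115 stayed inside the 95% interval (shares) or near the count (counts) and 43 moved; no value has a test. Allowing a gap between peaks moved none of 25. A reciprocal overlap of 50% moved 1, parental WX-02-23 peaks gained, from 2 to 5. Trimming 100 kb from each end moved 2: it removed the siFOXA1 peak, so its count and the share of siControl peaks called became 0.

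Taking the top 50% of each list gave 34 sites. Peaks per list became 16 (siControl), 0 (siFOXA1), 4 and 7 (WT and C258A without doxycycline), 18 and 12 (WT with DMSO and WX-02-23) and 12 (C258A with DMSO). Gained peaks became 1 for siControl, PladB, WX-02-23 against DMSO and against WX-02-43, WT with WX-02-23 and C258A against WT, 0 for WX-02-43 and 7 for C258A induction. Shares called became 100.0% with PladB and 0 with siFOXA1. Fewer peaks enter by construction.

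Lists of equal length moved 12 values. Shares called became 94.1% (WX-02-43), 0 (siFOXA1), 50% (WT induction), 75.0% (C258A with WX-02-23) and 87.5% (C258A against WT). Gained peaks became 6 (siControl), 4 (WX-02-23), 1 (siFOXA1), 2 each (WX-02-43 and PladB), 6 (WT induction) and 6 (C258A against WT). Sites called only after doxycycline became 13 of 28, and those in doxycycline lists alone 9 of 23, with the 6 engineered lists at 8575 peaks. With 11 lists at that length, peaks became 13 (DMSO), 14 (siControl), 10 (PladB), 11 (WX-02-43), 11 and 9 (WT with DMSO and WX-02-23), 8 (C258A without doxycycline) and 14 (C258A with WX-02-23).

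The alternatives for sites in doxycycline lists alone, and leaving out the C258A list with doxycycline and DMSO, were chosen after seeing the data. Of 24 counts of lists per named site, 9 moved with the top 50%. No paired analysis was possible because each group has 1 library, and leaving out a replicate does not apply. Read depth is unknown, so an absent call and a shallow library cannot be told apart.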

Other observations

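In the window 3 sites (5.00%, beside 6.40% of all sites) were called in the 5 parental lists other than siFOXA1 and in no doxycycline list, and the lists without doxycycline did not call them either. Site 24 (chr4:69730113-69731569) had the highest score of them: 1023 with DMSO, 847 with siControl, 871 with PladB, 223 with WX-02-43 and 520.3 with WX-02-23. Site 54 (chr4:70361285-70362261) scored 438, 628, 433, 380.1 and 327 in the same order. The third was site 58, the 1 window site also called with siFOXA1. Of the 3, site 24 lay in the highest-scoring 10% of the DMSO list, and it was named after its values were seen. How many peaks in that part of the whole DMSO list were absent from every engineered list was not computed.

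Site 56 (chr4:70435760-70436609) had the highest score in WT cells with doxycycline and DMSO among window sites that parental DMSO cells lacked, 578 (rank 3628 of 31735). With WX-02-23 it scored 91.5 in WT cells (rank 25434 of 25849), and in C258A cells 208 with DMSO and 220.1 with WX-02-23. It was also called with PladB in parental cells (171) and in C258A cells without doxycycline (109.8).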
